A study of Triticum aestivum with 8 samples.

Results

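In wheat leaves, 303 of 61179 probe sets were higher under drought in both the cultivars studied, C306 and WL711. A probe set is a group of short oligonucleotides on an Affymetrix array that together read 1 transcript or a group of like transcripts. A member had to read higher on both droughted arrays than on both watered arrays of C306, with a mean difference of at least 0.5 on the log2 scale, and had to do the same in WL711. The members were thus chosen by the drought differences themselves, so these differences are given below as a description, without a test. The 303 members made up 0.495% of the array.

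The study measured leaf RNA of bread wheat (Triticum aestivum) on 8 arrays, with 2 biological replicates for each of 4 groups: droughted C306, watered C306, droughted WL711 and watered WL711. All plants were labelled as 48 days old. The droughted plants had received no water from day 27, which makes 21 days, and the watered plants were watered throughout. Breeders regard C306 as tolerant of drought, and WL711 as susceptible to it. The labels do not say whether a replicate was 1 plant or a pool of plants.

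Plants that run short of water close their stomata, accumulate the hormone abscisic acid and switch on protective genes, among them those of dehydrins and other late embryogenesis abundant proteins, chaperones, enzymes that remove reactive oxygen, and enzymes that make compatible solutes. Growth and photosynthesis genes are commonly turned down in the same leaves. Bread wheat is a hexaploid, so most of its genes are present as several near-identical copies, called homoeologues, and a probe set may read more than 1 of them. In leaf tissue, fewer cells of a type and less RNA per cell cannot be told apart.

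The values are log2 signals after RMA that were then centred, so that the median of each probe set over the 8 arrays was 0. A value of 1 therefore means that this array read the probe set 1 log2 unit above its median over all arrays, and no value gives the abundance of a transcript or allows one probe set to be ranked against another. For the same reason the leaf label could not be set against leaf marker genes.

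The rule was met by 2114 probe sets in C306 (3.46%) and by 3440 in WL711 (5.62%). If membership in C306 were independent of membership in WL711, 118.9 probe sets would be expected on both lists, against the 303 observed, a ratio of 2.55. The members were 14.3% of the C306 list and 8.81% of the WL711 list. No array entered both lists, but the 8 arrays were normalised together, and probe sets that read the same transcript are not independent of each other.

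The overlap exceeded the independent expectation in every pairing of directions, also where the cultivars moved opposite ways. There were 124 probe sets lowered in both cultivars against 67.3 expected, a ratio of 1.84. Another 293 were lowered in C306 and raised in WL711 against 99.1 expected, a ratio of 2.96, and 177 were raised in C306 and lowered in WL711 against 80.6 expected, a ratio of 2.19. The ratio for probe sets raised in both was thus lower than that for probe sets lowered in C306 and raised in WL711. The difference between the ratios was not tested. When the minimum of 0.5 was dropped and only the ordering of the arrays was asked, 2667 probe sets were raised in both against 2209.8 expected, a ratio of 1.21. The ratio was then 0.997 for probe sets lowered in both, 0.964 for those lowered in C306 and raised in WL711, and 0.834 for those raised in C306 and lowered in WL711. With a minimum of 1, 41 probe sets were raised in both against 6.66 expected, a ratio of 6.16. The ratio was then 0.935 for those lowered in both (1 probe set), 11.6 for those lowered in C306 and raised in WL711 (39), and 17.5 for those raised in C306 and lowered in WL711 (37).

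**Figure D1:**
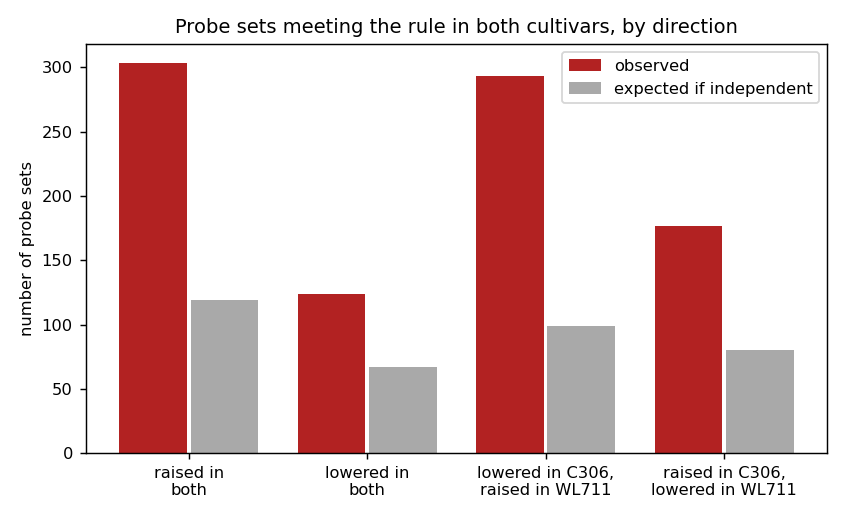
Number of probe sets that met the rule in both cultivars (red bars) and number expected if the cultivars were independent (grey bars), for the 4 pairings of directions. The observed bar is above the expected bar in all 4, with 303 against 118.9 for probe sets raised in both.

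The members also varied more between replicates than the array as a whole. The median SD over the 2 arrays of a group was 0.273 for the members and 0.102 for all probe sets in droughted C306, and 0.339 and 0.126 in watered C306. It was 0.177 and 0.114 in droughted WL711, and 0.230 and 0.172 in watered WL711. The part of this spread in the excess overlap was not tested.

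The number of probe sets that met the rule moved with the normalization and with single arrays. Quantile normalization once more left 165 against 78.9 expected, and 142 of the 303 were among them. The ratio was then 2.09, the lowest of the pairings. It was 2.11 for probe sets lowered in both and 3.25 for those lowered in C306 and raised in WL711. For those raised in C306 and lowered in WL711 it was 2.69. Leaving out C306 control replicate 2 gave 628, of which 298 were among the 303, and leaving out C306 drought replicate 2 gave 497, of which 291 were. Leaving out C306 control replicate 1 gave 212, with 183 of the 303. The ratio to the expectation ran from 1.67 without WL711 control replicate 2 to 3.88 without WL711 control replicate 1, so it remained above 1 for each of the 8 arrays left out. For probe sets lowered in both it ran from 0.695 to 3.79. The ratio also stayed above 1 for both pairings of opposite direction. It ran from 2.10 to 4.42 for those lowered in C306 and raised in WL711. For those raised in C306 and lowered in WL711 it ran from 1.40 to 2.86.

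Control probe sets and the width of each array's distribution were set beside these counts, and their part in them was not tested. Mean signal of the 27 hybridisation control probe sets, which read RNA added just before hybridisation, was -0.910 on C306 drought replicate 1, -0.984 on C306 control replicate 2 and -0.716 on WL711 control replicate 1, and between 0.022 and 0.127 on the other 5 arrays. The 36 poly-A control probe sets averaged -0.053 and -0.042 on droughted C306 against 0.592 and 0.516 on watered C306, and 0.241 and -0.385 on droughted WL711 against -0.710 and -0.135 on watered WL711. All probe sets together had an interquartile range of 0.482 on WL711 control replicate 1, where the other 7 arrays had 0.221 to 0.302. The 3' minus 5' difference of the actin control probe sets, a measure of RNA integrity and labelling, was -0.238 and -0.083 in droughted C306 against -0.108 and 0.260 in watered C306. It was -0.350 and -0.022 in droughted WL711 against 0.422 and 0.272 in watered WL711. Its mean was thus lower under drought in both cultivars, with overlapping groups in C306 and separate ones in WL711. The other controls of this kind did not share that pattern. For EF1a it was higher under drought in C306, at 0.019 and 0.087 against -0.084 and -0.322. In WL711 its droughted arrays, at -0.259 and -0.360, lay between the watered ones, at -0.494 and 0.294. For GAPDH the droughted and watered arrays overlapped in both cultivars. Without the 3 arrays of low hybridisation controls, which leaves 1 array in each of their groups, 677 probe sets met the rule against 219.4 expected. Of the 303, 208 were among them. The ratio was then 3.09, the highest of the pairings. It was 2.41 for probe sets lowered in both and 2.28 for those lowered in C306 and raised in WL711. For those raised in C306 and lowered in WL711 it was 1.90. Of the 111 Affymetrix control probe sets, 0 met the rule in both cultivars, 0 in C306 and 6 in WL711.

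In C306 the members differed between drought and control by 0.502 to 3.82, with a median of 0.82, where the median over all probe sets was -0.019. In WL711 they differed by 0.501 to 4.05, with a median of 0.74, against -0.018 over all probe sets. A difference of at least 1 was reached by 98 members in C306, by 80 in WL711 and by 41 in both. The drought difference was larger in C306 for 176 members and larger in WL711 for 127, and the 2 differences lay within 0.5 of each other for 225. Across the 303 members, which the rule truncated at 0.5 and which share all 8 arrays, the drought differences of the cultivars had a Pearson's r of 0.278.

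**Figure D2:**
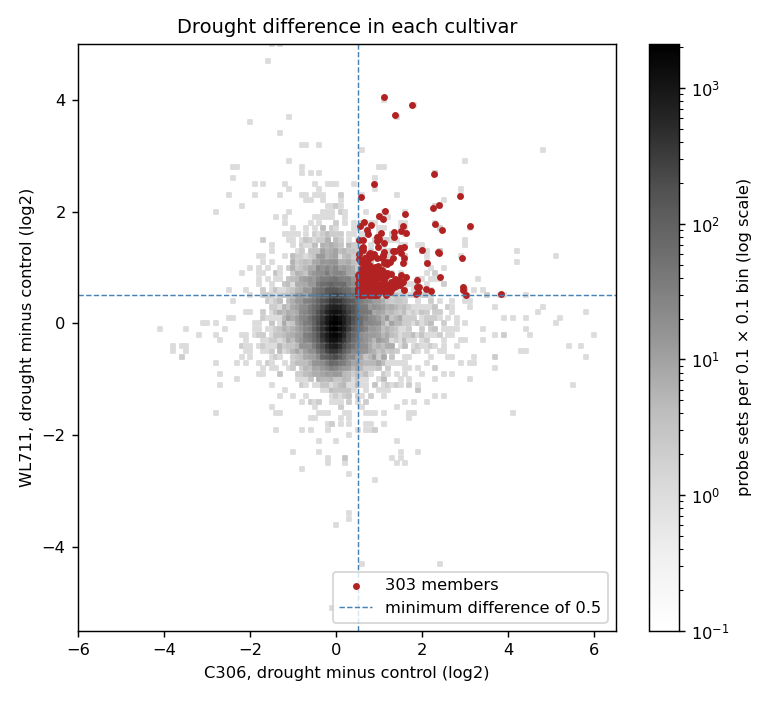
Drought minus control in C306 (horizontal axis, log2) and in WL711 (vertical axis, log2), with all 61179 probe sets as grey bins and the 303 members as red points. Dashed lines mark the minimum of 0.5, and most members lie close to the corner of the lines, with a median of 0.82 in C306 and 0.74 in WL711.

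The separation was narrow for many members when single arrays were set side by side. The gap between the lower drought array and the higher control array had a median of 0.331 in C306 and 0.421 in WL711. Taking the smaller gap of the cultivars, 28 members had a gap above 0.5, 2 had a gap above 1, and 62 had a gap under 0.1. The members' C306 controls differed from each other: replicate 1 was below replicate 2 for 266 of the 303, by a median of 0.476. In WL711, control replicate 1 was below replicate 2 for 156. C306 drought replicate 1 was above replicate 2 for 232 members, and WL711 drought replicate 1 above replicate 2 for 119.

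Few members had drought differences that the fit over the whole array called. With limma and a Benjamini-Hochberg adjusted p under 0.05, 1 member was among the 24 probe sets higher in droughted C306 (0.0392% of the array) and 1 among the 10 higher in droughted WL711 (0.0163%). The C306 one was Ta.30871.1.S1_at. It read 2.44 and 3.47 in droughted C306 against -0.080 and 0.080 in watered C306, and -0.163 and 0.560 in droughted WL711 against -0.373 and -0.423 in watered WL711. The WL711 one was Ta.25703.2.A1_s_at, which is described next. As the rule used these contrasts, nothing is read from either count. Both names were chosen after the values were seen.

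Taking for each member the smaller of its gaps in the cultivars, Ta.25703.2.A1_s_at had the widest. Within 1 cultivar other members had wider gaps, such as 2.36 for Ta.30871.1.S1_at in C306 and 3.57 for Ta.4306.1.S1_at in WL711. It read 1.54 and 1.51 in droughted C306 against -0.176 and 0.479 in watered C306. It read -1.19 and 0.176 in droughted WL711 against -4.33 and -4.13 in watered WL711. No drought array came within 1.03 of a control array of its cultivar, and the watered WL711 arrays stood far below all others. TaAffx.107883.1.S1_at was the other member with a gap above 1. It read 2.07 and 1.78 in droughted C306 against -1.66 and 0.772 in watered C306, and -0.152 and 0.152 in droughted WL711 against -1.22 and -1.34 in watered WL711. These names too were chosen after the values were seen.

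The member whose smaller drought difference was largest was Ta.14981.1.S1_at, at 2.87 in C306 and 2.28 in WL711. It read -0.105 and 0.105 in droughted C306 against -4.06 and -1.67 in watered C306, and 1.09 and 1.54 in droughted WL711 against -2.16 and 0.216 in watered WL711. The droughted arrays lay closer together than the watered ones in each cultivar. Next came TaAffx.133664.1.S1_at at 2.27 in C306 and 2.67 in WL711. It read 1.74 and 1.25 in droughted C306 against -2.24 and 0.698 in watered C306, and -0.026 and 0.026 in droughted WL711 against -1.10 and -4.24 in watered WL711. Here 1 control array in each cultivar, C306 replicate 1 and WL711 replicate 2, stood far below its partner.

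C306 control replicate 1 and WL711 control replicate 2 were also the lower controls in Ta.13965.1.S1_at, Ta.25492.1.S1_at, Ta.8390.1.S1_at, Ta.7402.1.S1_at and Ta.21438.1.A1_at, all among the 10 largest. Ta.13965.1.S1_at read 1.38 and 1.32 in droughted C306 against -2.97 and 1.15 in watered C306, and 0.772 and -0.772 in droughted WL711 against -1.37 and -2.78 in watered WL711. In Ta.25492.1.S1_at the C306 drought arrays at 1.15 and 1.12 stood only 0.046 above C306 control replicate 2, with C306 control replicate 1 at -1.99. Ta.8390.1.S1_at had drought differences of 1.77 in C306 and 3.90 in WL711, Ta.7402.1.S1_at of 2.45 in C306 and 1.67 in WL711, and Ta.21438.1.A1_at of 2.38 in C306 and 2.11 in WL711.

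One high drought array stood out in a further pair of these members. Ta.18186.1.A1_at read 3.10 and -0.012 in droughted WL711 against -0.094 and -0.303 in watered WL711, and differed by 3.11 in C306 and 1.74 in WL711. Ta.20121.1.S1_x_at read 2.12 and -0.376 in droughted WL711 against -0.963 and -0.848 in watered WL711, and differed by 2.29 in C306 and 1.78 in WL711. In both, WL711 drought replicate 2 was nearer to the watered arrays than to replicate 1.

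In Ta.9588.2.S1_a_at, also among the 10, the replicates of each group lay closer together. It read 1.87 and 2.55 in droughted C306 against 0.146 and 1.03 in watered C306, and -0.638 and -0.146 in droughted WL711 against -1.87 and -2.15 in watered WL711. Its drought difference was 1.62 in each cultivar, with C306 well above WL711 under either watering.

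At the edge of the rule the members just inside were TaAffx.128796.2.S1_at, Ta.6207.2.S1_a_at, TaAffx.108344.1.S1_x_at, Ta.3133.1.S1_x_at and Ta.5228.2.A1_a_at, whose smaller drought differences were 0.501 to 0.505. Just outside were TaAffx.120151.1.A1_at, Ta.4170.2.S1_x_at, TaAffx.92424.1.S1_at, Ta.3493.2.S1_a_at and Ta.12148.3.S1_at, at 0.498 to 0.50. In all, 2364 further probe sets passed the ordering in both cultivars but missed the minimum of 0.5 in at least 1 of them.

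The platform annotation paired 8 of the 303 members with a gene (2.64%), against 1273 of all 61179 probe sets (2.08%). All 8 carry only LOC identifiers. The gene table lists each as protein coding with no other name, so no function is given here. Their drought differences ran from 0.56 to 1.26 in C306 and from 0.54 to 2.02 in WL711.

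LOC543330 had the largest WL711 difference of the 8. Its probe set read 1.83 and 0.426 in droughted C306 against 0.045 and -0.045 in watered C306, and 3.45 and -0.119 in droughted WL711 against -0.513 and -0.188 in watered WL711. The WL711 difference of 2.02 came mainly from drought replicate 1, since replicate 2 stood only 0.069 above the nearer control.

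LOC542858 was the 1 gene of the 8 whose 4 drought arrays all stood above all 4 control arrays, by 0.463. It read 0.906 and 0.425 in droughted C306 against -0.728 and -0.301 in watered C306, and 0.241 and 0.232 in droughted WL711 against -0.685 and -0.232 in watered WL711. LOC542857 had a similar profile. It read 1.0 and 0.445 in droughted C306 against -0.797 and 0.026 in watered C306, and -0.026 and 0.104 in droughted WL711 against -0.957 and -0.524 in watered WL711.

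LOC542989 had the largest C306 difference of the 8, at 1.26. Its member probe set read 1.76 and 1.70 in droughted C306 against -0.472 and 1.41 in watered C306, and -0.018 and 0.018 in droughted WL711 against -0.352 and -0.864 in watered WL711. Watered C306 replicate 2 stood above every WL711 array, while replicate 1 was within the range of watered WL711. Its other probe sets, Ta.28351.1.S1_at and Ta.28351.1.S1_x_at, had drought differences of 1.53 and 1.20 in C306 and of 0.30 and 0.63 in WL711. The first of these missed the minimum in WL711, and neither is a member.

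LOC543297 read 0.896 and 0.257 in droughted C306 against -0.191 and 0.216 in watered C306, and -0.069 and 0.069 in droughted WL711 against -1.07 and -0.866 in watered WL711. The drought arrays of C306 thus cleared the higher control by only 0.041, while in WL711 the groups lay well apart. Of its other 3 probe sets, Ta.11.2.S1_x_at had differences of 0.48 in C306 and 0.38 in WL711. Ta.11.2.A1_at, at -0.085 and -0.114, and TaAffx.80159.1.S1_at, at -0.153 and -0.353, were not raised in either.

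LOC543298 read 0.878 and 0.718 in droughted C306 against -0.003 and 0.408 in watered C306, and 0.003 and -0.196 in droughted WL711 against -0.697 and -0.574 in watered WL711. Its other probe set, Ta.23743.1.A1_at, had differences of -0.137 in C306 and 0.113 in WL711. LOC542814 had differences of 0.99 in C306 and 0.57 in WL711, with watered C306 arrays at -1.04 and 0.122 and droughted ones at 0.830 and 0.235. Its other probe set, Ta.1868.1.S1_x_at, had differences of 0.67 in C306 and 0.053 in WL711. LOC606397 had differences of 0.61 in C306 and 0.74 in WL711, with the nearest C306 drought and control arrays only 0.018 apart. So for 4 of the 8 genes a further probe set existed, and for none of these 4 was a further probe set a member.

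**Figure D3:**
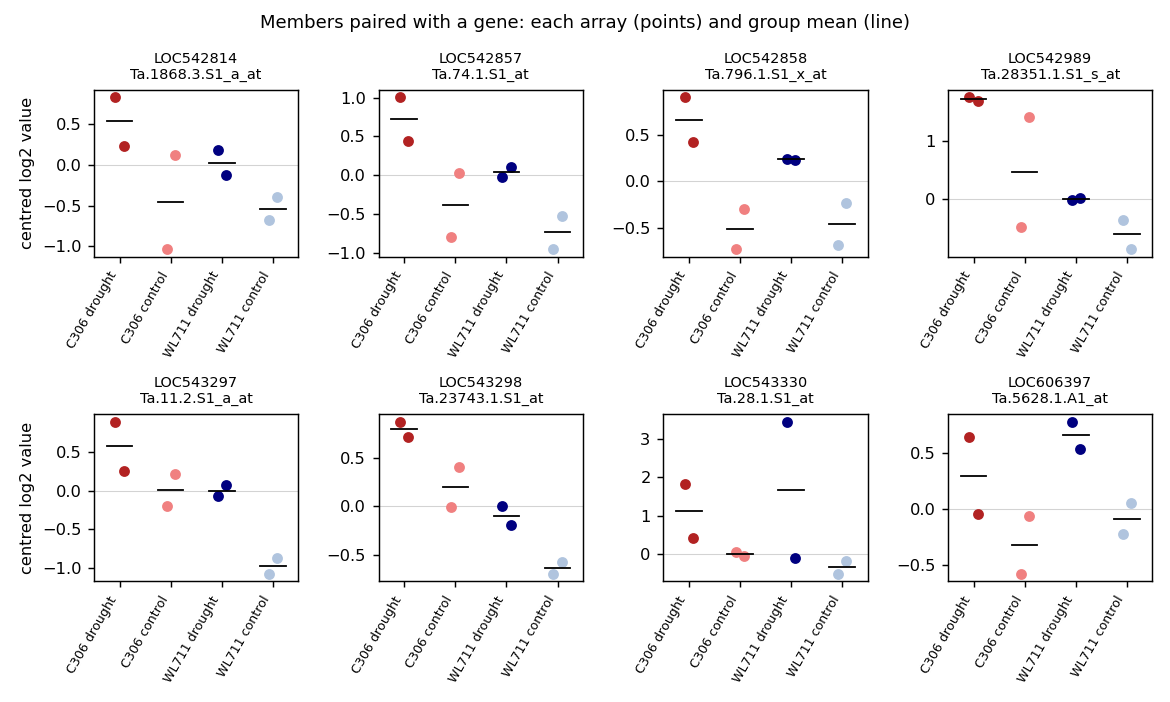
Centred log2 value on each array (points) and group mean (lines) for the 8 members paired with a gene, with droughted left of watered plants within each cultivar. The WL711 drought replicates of LOC543330 lie far apart, at 3.45 and -0.119, while those of LOC542858 lie close together, at 0.241 and 0.232.

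Names other than LOC, synonyms included, were found for 102 genes with 200 probe sets. Of these, 0 were members, where 0.495% of the array were, 8 met the rule in C306 alone and 10 in WL711 alone, where 3.46% and 5.62% of the array met it. Among 200 probe sets these counts are near the shares of the array, and nothing is read from the absence of a named member. Over all 1273 annotated probe sets, 95 met it in C306 and 133 in WL711. Both were larger shares than the 3.46% and 5.62% of the array, and this was not tested. The median drought difference of the annotated probe sets was -0.015 in C306 and 0.044 in WL711.

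Some named genes met the rule in 1 cultivar, and those given here were picked after their values were seen. The gene of PR5, a thaumatin-like protein of plant defence, differed by 2.53 in C306 and 2.18 in WL711 on Ta.24501.1.S1_at, but its WL711 arrays overlapped. XIP-I, an inhibitor of fungal xylanases, met the rule in C306 at 0.52 on both its probe sets and missed it in WL711, at 0.27 and 0.26. The fructan exohydrolase gene 6-FEH, whose product breaks down stored fructan, went opposite ways, at -1.21 in C306 and 1.93 in WL711 on Ta.30950.1.A1_x_at and at -0.65 in C306 and 2.20 in WL711 on Ta.9641.1.A1_a_at.

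Of 10 lists of drought-related gene groups, 5 matched any name. The dehydrin and late embryogenesis abundant list held the dehydrin genes COR410 and Rab15 and the gene LEA1, with 5 probe sets. None of these met the rule in either cultivar, and their medians were -0.0015 in C306 and -0.17 in WL711, with a range of -0.31 to 0.41 over both.

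No probe set that the other lists took in by name met the rule in either cultivar. The lists did not cover these groups in full. The defence list took in only a thionin gene, and neither PR5 nor XIP-I, which met the rule in C306 as given above. The sugar and fructan list matched no name, although the fructan exohydrolase gene given above met the rule in WL711. Nothing is read from the lists about these groups as a whole. The small heat shock gene hsp16.9A stood at -0.16 in C306 and 0.059 in WL711. The probe sets of PER1, listed as a peroxidase, had medians of 0.084 in C306 and -0.020 in WL711, and those of the thionin gene THI1.3 medians of -0.12 in both. GBSS-I, a starch synthase gene that the wax list took in through its synonym waxy, stood at -0.15 in C306 and -0.21 in WL711. With 0 members in each, these lists say nothing about the 295 members that have no gene in the annotation.

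The members fell into 264 sequence clusters of the array design, which is the number that follows the prefix in a probe set's name. Of these clusters 231 held 1 member, 29 held 2, 2 held 3 and 2 held 4, so 72 members shared a cluster with another. Of the 264 clusters 131 had more than 1 probe set on the array, and 272 of their probe sets were not members. Of these 61.4% lay above 0 in both cultivars, against 27.1% of all 24316 probe sets in clusters with several. Their median drought difference was 0.23 in C306 and 0.14 in WL711, against -0.0071 in C306 and 0.021 in WL711 over those 24316. Probe sets of 1 cluster can bind the same RNA, so this measures how far the readings repeat within these 8 arrays and adds no replicate of a condition.

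The clusters with 3 or 4 members, singled out after their values were seen, show members that ran together and probe sets that stood apart from them. All 4 probe sets of cluster Ta.10503 were members, with drought differences of 0.59 to 0.94 in C306 and of 0.61 to 0.88 in WL711. Of the 5 probe sets of cluster Ta.9766, 4 were members, and Ta.9766.1.S1_x_at missed the minimum in WL711 at 0.48. In cluster Ta.10107 the 3 members had larger differences in WL711, at 1.26 to 1.77, than in C306, at 0.72 to 0.81. Its other probe sets were Ta.10107.3.S1_at at -0.047 in C306 and -0.17 in WL711, and Ta.10107.3.S1_x_at at 0.064 in C306 and 0.60 in WL711. In cluster Ta.5127 the 3 members ran the other way, at 1.06 to 1.24 in C306 and 0.59 to 0.69 in WL711. Its other probe set, Ta.5127.2.S1_at, stood at 0.18 in C306 and -0.11 in WL711.

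Ta.10107.2.S1_a_at, of the first of these contrasting clusters, read 0.948 and 0.044 in droughted C306 against -0.582 and -0.044 in watered C306, and 0.939 and 0.719 in droughted WL711 against -0.954 and -0.921 in watered WL711. In WL711 its groups stood far apart, and in C306 they nearly met. Ta.5127.2.S1_a_at, of the second, read 1.28 and 0.615 in droughted C306 against -0.597 and 0.007 in watered C306, and -0.007 and 0.107 in droughted WL711 against -0.496 and -0.632 in watered WL711.

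Probe sets that may bind several transcripts were more frequent among the members. Names ending in _x_at, _s_at or _a_at, which mark shared or similar target sequence in Affymetrix designs, made up 36.3% of the members and 20.8% of the array. By prefix, 74.6% of the members began with Ta and 25.4% with TaAffx, against 51.4% and 48.5% of the array. Without the names ending in _x_at, _s_at or _a_at, 193 members were left against 64.0 expected, a ratio of 3.02. The ratio was then 1.72 for probe sets lowered in both and 3.37 for those lowered in C306 and raised in WL711. For those raised in C306 and lowered in WL711 it was 2.06.

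The rule asked nothing about which cultivar read higher, so this was tested. The contrast was C306 minus WL711, averaged over droughted and watered arrays, fitted with limma on all 61179 probe sets. It is orthogonal to the drought contrasts that chose the members if the groups have equal spread, but the median SDs given above differed between groups. The ordering of the arrays in the rule also depends on the spread between replicates, from which the adjusted p is computed. The selection can thus bear on these calls, and its part in them was not tested. Of the 303 members, 154 differed between cultivars at an adjusted p under 0.05 (50.8%), against 19.0% of the array. Those higher in C306 numbered 144 (47.5%), against 10.1% of the array, and those lower in C306 numbered 10 (3.30%), against 8.90%. The median difference was 0.62 over the members and -0.076 over all probe sets, and 273 members (90.1%) lay above 0, against 39.9% of all.

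**Figure D4:**
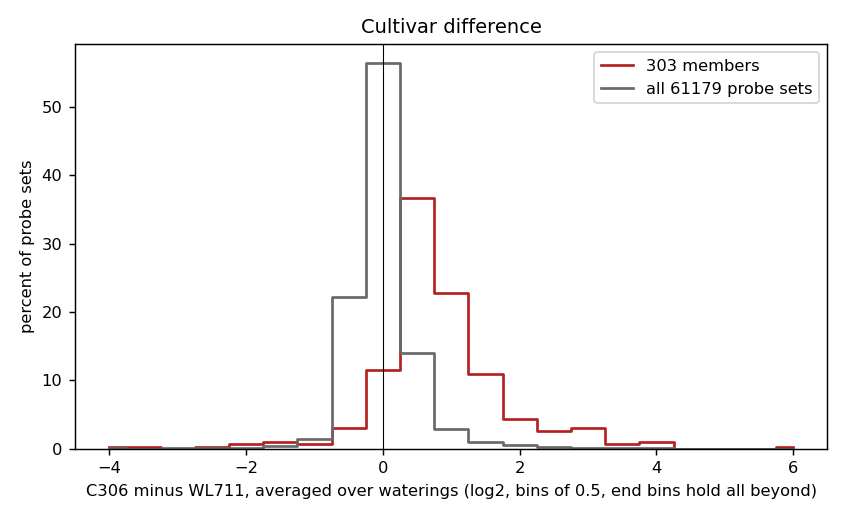
Percent of probe sets by C306 minus WL711 difference (log2, averaged over waterings, in bins of 0.5) for the 303 members (red) and all 61179 probe sets (grey). The members are shifted to the right, with a median of 0.62 against -0.076.

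The counts within 1 watering are given as a description, since these contrasts use values the rule chose on and are not orthogonal to the drought differences. Both contrasts came from the fit to all 8 arrays, so their spread was estimated from both waterings. In the contrast of the drought arrays 93 members differed between cultivars (30.7%, against 6.73% of the array). Of these, 86 were higher in C306 and 7 lower, against 4.20% and 2.53% of the array. In the contrast of the control arrays 91 differed, against 11.0% of the array, with 86 higher and 5 lower, against 6.67% and 4.31%. In the contrast averaged over waterings, with a block for whether an array had low hybridisation controls, 130 were higher (42.9%) and 10 lower (3.30%). Of the array, 8.65% were higher and 6.29% lower with this block. Leaving out an array leaves 1 array in its group, so counts from those fits are not given.

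The sets that met the rule in other directions held about as large a share that differed between cultivars as the 50.8% of the members. It was 49.2% for those lowered in both and 49.5% for those lowered in C306 and raised in WL711. For those raised in C306 and lowered in WL711 it was 46.3%. A share far above the 19.0% of the array was thus not particular to the members. The split into higher and lower differed. Of the 293 lowered in C306 and raised in WL711, 40.3% were higher and 9.22% lower in C306. Of the 177 raised in C306 and lowered in WL711, 31.6% were higher and 14.7% lower. Of the 124 lowered in both, 15.3% were higher and 33.9% lower. The differences between these sets were not tested.

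By array, the members were highest in droughted C306 and lowest in watered WL711. Their median value was 0.902 and 0.572 in droughted C306, -0.291 and 0.139 in watered C306, -0.018 and 0.050 in droughted WL711, and -0.728 and -0.759 in watered WL711. A droughted C306 array was the highest of the 8 for 272 members, and a watered WL711 array was the lowest for 242. The rule itself made the highest array a droughted one and the lowest a watered one. Only the cultivar was free in these counts, and it repeats the cultivar contrast above. The watered C306 arrays both lay above the droughted WL711 arrays for 65 members and both below them for 78. For 63 of the 303 members all 4 drought arrays stood above all 4 control arrays. On the whole array 715 probe sets did so, and each of them passes the ordering part of the rule by definition. They were 715 of the 2667 that passed the ordering in both cultivars, so nothing is read from the count of 63. The widest of these 63 was TaAffx.12211.1.A1_at, singled out after its values were seen. It read 1.38 and 0.491 in droughted C306 against -1.78 and -0.331 in watered C306, and 0.609 and 0.331 in droughted WL711 against -0.859 and -0.830 in watered WL711.

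**Figure D5:**
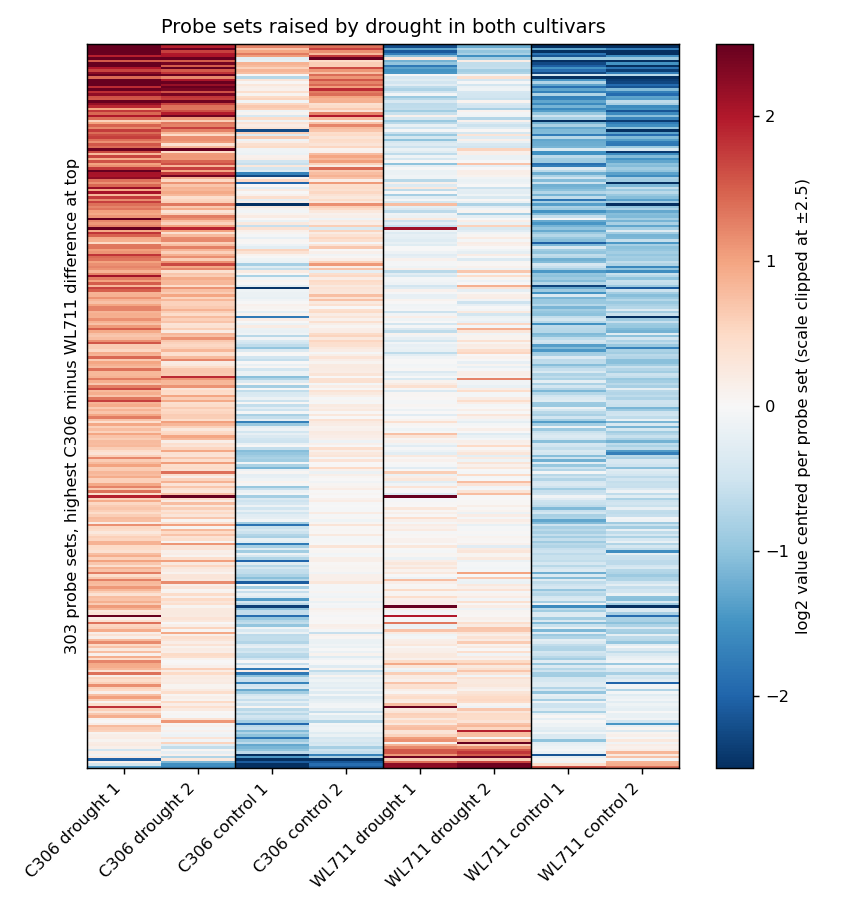
Centred log2 values of the 303 members (rows) on the 8 arrays (columns, drought left of control within each cultivar), with rows in order of the C306 minus WL711 difference. Droughted C306 is the reddest pair of columns, with medians of 0.902 and 0.572, and watered WL711 the bluest, with medians of -0.728 and -0.759.

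The member with the largest cultivar difference was Ta.7716.1.S1_at. It read 2.81 and 3.20 in droughted C306 and 2.46 and 2.36 in watered C306, against -2.67 and -2.36 in droughted WL711 and -3.32 and -4.39 in watered WL711. All C306 arrays stood more than 4 log2 units above all WL711 arrays, and the difference was 5.89 (SE 0.22, limma adjusted p = 8.85e-07). Its drought differences of 0.59 in C306 and 1.34 in WL711 were small beside it. Next were TaAffx.81240.1.S1_at at 4.19 (SE 0.24, limma adjusted p = 1.19e-05), Ta.7740.1.A1_at at 3.99, TaAffx.81240.1.S1_x_at of the first one's cluster at 3.90, and Ta.9507.2.S1_at at 3.46. In Ta.7740.1.A1_at, at 4.65 and 3.80 in droughted C306 and 0.721 and 1.71 in watered C306, the WL711 drought difference was only 0.51, with the nearest drought and control arrays 0.0013 apart.

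Among the 10 members lower in C306, Ta.28142.1.A1_at stood lowest. It read -1.38 and -1.61 in droughted C306 and -2.57 and -2.12 in watered C306, against 2.22 and 2.43 in droughted WL711 and 1.62 and 1.38 in watered WL711. The difference was -3.83 (SE 0.14, limma adjusted p = 6.39e-07), while its drought differences were close to each other, at 0.85 in C306 and 0.82 in WL711. Ta.12013.1.S1_at stood at -3.25 (SE 0.30, limma adjusted p = 0.000191), with drought differences of 1.5 in C306 and 1.65 in WL711. Ta.24841.2.S1_at, Ta.20570.1.A1_at and Ta.23290.2.S1_at stood at -2.26, -2.23 and -2.19. Ta.20570.1.A1_at lost its call with trend and robust eBayes (limma adjusted p = 0.211) and in the contrast of drought arrays (0.172). Ta.23290.2.S1_at lost it in the contrast of control arrays (limma adjusted p = 0.0677). These probe sets thus met the rule both in a cultivar that read them low and in one that read them high.

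Of the 8 members with a gene, 3 differed between cultivars, all higher in C306. LOC543298 was higher by 0.87 (SE 0.13, limma adjusted p = 0.00246), with means of 0.50 over the C306 arrays and -0.366 over the WL711 arrays. LOC542989 was higher by 1.40 (SE 0.35, adjusted p = 0.0247), with means of 1.10 and -0.304. LOC543297 was higher by 0.78 (SE 0.16, adjusted p = 0.0136), with means of 0.295 and -0.484. These values, and those under the alternatives, belong to the member probe sets. Ta.23743.1.A1_at of LOC543298 stood the other way at -0.36 (limma adjusted p = 0.119). For LOC543297, Ta.11.2.S1_x_at stood at 0.51, Ta.11.2.A1_at at -0.0089 and TaAffx.80159.1.S1_at at -0.13. For LOC542989, Ta.28351.1.S1_at stood at 1.25 and Ta.28351.1.S1_x_at at 1.17. Under the alternatives the adjusted p of LOC543298 ran from 0.000968 to 0.0217, that of LOC542989 from 0.000224 to 0.185 and that of LOC543297 from 0.00723 to 0.196. The calls were lost in 1 of 18 alternatives for LOC543298 (an absolute difference of at least 1), 10 of 17 for LOC542989 and 3 of 17 for LOC543297. The other 5 genes stood between -0.30 and 0.52, with adjusted p from 0.113 to 0.930.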

How the data were processed

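Leaf RNA of 8 wheat samples was read on Affymetrix arrays. The deposited values are log2 signals: per the submitters' processing notes the authors used RMA, whose version is not given in the sources used here. Across the 8 arrays each probe set had a median of 0 (largest absolute median 5e-07), so the values were centred as well. Scanner values were not used here. Of 61290 probe sets, 111 Affymetrix controls were left out and 61179 kept.

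Groups came from the sample titles. Membership was computed from the deposited values. The number expected was the product of both lists' lengths over 61179. The cultivar contrast was fitted with limma 3.58.1 in R 4.3.3 (lmFit on 4 group means, eBayes without trend, 4 residual and 4.63 prior degrees of freedom, Benjamini-Hochberg over 61179 probe sets, threshold 0.05). On simulated data for this contrast over 61179 probe sets it recovered 75.2% of log2 differences of 1 and 99.6% of differences of 2, and 5.84% of calls were false. The simulated probe sets were independent and had equal spread in the 4 groups, unlike the deposited values. These rates therefore need not hold for the deposited values or for the members. Nothing says that replicates were separate plants, so p-values measure the spread between these samples. Depth does not apply to arrays. Their number limits the precision.

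Genes came from the platform annotation (1273 probe sets, 771 genes). A RefSeq gene table (assembly IWGSC CS RefSeq v2.1), used only for names, held 770 of these genes. Members, lists and tests were chosen with earlier results of these data known. Named probe sets were all members with a gene, the 10 with the largest smaller drought difference, 5 on each side of the minimum, and the 5 highest and 5 lowest called in the cultivar contrast. Replicate numbers were checked as pairs. Deviations of same-numbered arrays correlated at -0.0926 to 0.112 over the 6 pairs of groups, so they were not treated as pairs. Alternatives were other minimums, no ordering, median shift, quantile normalization once more, and removal of _x_at, _s_at and _a_at probe sets. Further ones were trend and robust eBayes, array weights, blocks, contrasts within single waterings and each array left out. The array weights came out equal for both replicates of each group, so they weighted groups and could not lower the weight of a single deviant array.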

Additional observations from a re-analysis of the deposited data

How the results depend on the processing

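The count of 303 members became 41 with a minimum difference of 1 (6.16 times the expectation, against 11.6 and 17.5 times for the pairings of opposite direction and 0.935 times for lowered in both), 2667 with no minimum (1.207 times), 514 without the ordering of the arrays, 165 after quantile normalization once more (142 of them among the 303) and 193 without _x_at, _s_at and _a_at probe sets. It was 328 with the arrays shifted to one median. Without the 3 arrays of low hybridisation controls, an alternative chosen after seeing the data, it was 677. Leaving out each array gave 212 to 628 members at 1.669 to 3.879 times the expectation. The ratio stayed above 1 in each of these alternatives. With an array left out, it also stayed above 1 for both pairings of opposite direction.

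The count of 154 members that differed between cultivars, 144 higher and 10 lower in C306, moved with the setting. It became 91, 86 and 5 in the contrast of control arrays, against 11.0%, 6.67% and 4.31% of the array. In the contrast of drought arrays it became 93, 86 and 7, against 6.73%, 4.20% and 2.53%. Each of these contrasts compares fewer samples, with the spread estimated from all 8 arrays. With an absolute difference of at least 1 it became 101, 93 and 8. The shares of the array are not given for that setting, so nothing is read from it. With a replicate block, where the numbers share only a name, it was 151, 140 and 11, against 17.2%, 9.45% and 7.76%. Counts from fits that leave 1 array in a group are not given. The median drought difference of the fixed members ran with each array left out from 0.572 to 1.08 in C306 and from 0.713 to 0.806 in WL711. After quantile normalization it was 0.713 for C306 and 0.563 for WL711.

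Of 583 values for 33 named members, 524 stayed on their side of the threshold with their sign, 28 lost and 10 gained a call, and 21 turned in sign. Those that turned were not called. They were TaAffx.108344.1.S1_x_at (0.0064 with one median, and -0.1314 to 0.075 with an array left out), Ta.21438.1.A1_at (-0.045 after quantile normalization, -0.20 with the hybridisation block, and -0.31 to 0.888 with an array left out), Ta.8390.1.S1_at (-0.14 with that block, -0.77 on drought arrays, and -0.28 to 0.874 with an array left out), Ta.28.1.S1_at (0.35 on control arrays, and -0.989 to 0.80 with an array left out), Ta.796.1.S1_x_at (-0.057 on control arrays) and Ta.18186.1.A1_at (-0.22 on control arrays, and -0.31 to 1.25 with an array left out). The cause was not tested. The precision is limited by 2 arrays in each group.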
